A study of Homo sapiens with 9 samples.

Results

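In embryoid bodies of the human cell line NCCIT, 61 of 18417 measured genes passed through a peak at day 7, and they are described here. A gene belonged to the set if both day 7 arrays made without ethanol exceeded the undifferentiated array and both day 21 arrays made without ethanol by at least 0.7 log2, and 10 hypoxia genes that the rule names (NDRG1, ANKRD37, KDM3A, PFKFB3, PFKFB4, P4HA1, VEGFA, GBE1, PPFIA4 and INSIG2) were left out. NCCIT is an embryonal carcinoma line, a malignant counterpart of pluripotent cells, and embryoid bodies are floating aggregates in which such cells begin to differentiate. The arrays covered day 7 and day 21 with 50 mM ethanol and FA, with 50 mM ethanol, with FA and with no addition, and undifferentiated cells. Days follow the sample titles, while the treatment protocol in the labels speaks of 7 days of aggregation for every sample, and the culture after that time is not described there. Each of these 9 conditions had 1 Affymetrix array, and all came from 1 cell line. The sources used here give neither the meaning nor the dose of the additive FA. Levels are log2 values normalized by RMA (robust multi-array averaging), so a difference of 1 is a 2-fold change. Nothing in the labels says whether the arrays came from separate cultures, so the p-values below reflect nothing more than the spread among the arrays, perhaps technical, and the number of arrays limits their precision.

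Embryoid bodies have no blood supply, and cells inside an aggregate can receive less oxygen than cells in a monolayer. When oxygen is short, the hypoxia-inducible factors (HIF) are no longer degraded and bind DNA at a core motif, ACGTG, to switch on genes for glucose use, vessel growth, matrix stiffening and restraint of growth. In the same weeks aggregates lose pluripotency genes step by step and start lineage genes, so a gene may be high for a few days as a passing stage. The 10 hypoxia genes that the rule leaves aside are textbook targets of this oxygen response, and several of the 61 genes are targets of it as well.

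Of the 61 genes, 44 had a promoter sequence in the RefSeq promoter table (GRCh38.p14). In the 250 bases upstream of the first listed start, ACGTG on either strand occurred in 15 of these 44 (34.1%), against 21.1% of 14237 genes with a promoter. The longer motifs CACGTG and TACGTG, both of which contain ACGTG, occurred in 18.2% of the 44 against 7.86% of all, and in 11.4% against 2.83%. Hypoxia-response genes were 6 of the 15 genes with ACGTG, 3 of the 8 with CACGTG and 4 of the 5 with TACGTG. The TACGTG share thus comes mostly from that list and does not describe the rest of the set. The ACGTG and CACGTG shares come partly from it. The promoters of the 44 genes also had a higher GC content, with a median of 67.8% against 62.8%. Among the 8 hypoxia-response genes of the set that had a promoter sequence, 6 held ACGTG, and the 4 of these that also held the longer TACGTG are printed to show where the core lies. Capitals mark ACGTG or its reverse complement CACGT, and a match is a description of letters, not a site of binding.
LOX, chr5:122078260-122078509, minus strand: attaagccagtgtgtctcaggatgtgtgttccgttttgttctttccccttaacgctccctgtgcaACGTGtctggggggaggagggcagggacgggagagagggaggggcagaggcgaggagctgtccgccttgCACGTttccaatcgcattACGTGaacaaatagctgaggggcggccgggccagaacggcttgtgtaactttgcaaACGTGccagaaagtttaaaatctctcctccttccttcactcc
BHLHE40, chr3:4979187-4979436, plus strand: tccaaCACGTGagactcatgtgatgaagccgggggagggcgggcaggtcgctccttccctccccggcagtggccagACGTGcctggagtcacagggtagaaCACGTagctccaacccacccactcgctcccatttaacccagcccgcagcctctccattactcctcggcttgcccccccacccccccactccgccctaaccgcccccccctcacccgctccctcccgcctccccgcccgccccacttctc
DDIT4, chr10:72273674-72273923, plus strand: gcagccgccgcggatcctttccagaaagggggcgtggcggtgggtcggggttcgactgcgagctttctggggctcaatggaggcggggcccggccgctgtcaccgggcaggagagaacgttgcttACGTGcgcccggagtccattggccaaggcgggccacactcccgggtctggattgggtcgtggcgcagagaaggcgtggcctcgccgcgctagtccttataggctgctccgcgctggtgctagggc
ALDOC, chr17:28576896-28577145, minus strand: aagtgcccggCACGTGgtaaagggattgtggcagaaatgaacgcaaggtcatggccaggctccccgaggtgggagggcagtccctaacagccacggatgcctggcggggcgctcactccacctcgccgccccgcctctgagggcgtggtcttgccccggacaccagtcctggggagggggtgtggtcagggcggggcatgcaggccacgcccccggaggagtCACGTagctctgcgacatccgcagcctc

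The 61 genes stood 1.21 log2 (median, range 0.73 to 2.81) above the undifferentiated array at day 7 without ethanol, and lay a median of 0.09 log2 below it at day 21. These values chose the genes and are given as a description. With the 10 named genes counted in, 65 genes (0.353% of all) met the margin. By day 21 without ethanol 29 of the 61 had dropped below the undifferentiated level on both arrays (48.7% of all genes did), whereas 26 were still above it on both (32.7% of all). The genes just inside the threshold were FHIP1A, SOCS4 and ACTN2, each with a margin of 0.71 log2, and those just outside were MICAL3 at 0.70, SUN1 at 0.70 and EFEMP2 at 0.69. By gene type 54 were protein coding, 4 were small nucleolar RNAs, 2 were long non-coding RNAs and 1, GLRA4, was a transcribed pseudogene. All 9 embryonal carcinoma markers examined, among them SOX2, LIN28A and DNMT3B, were above the filter on dim genes and 0 of them met the margin. Their median was 12.11 in undifferentiated cells, 11.75 (ethanol and FA), 11.63 (ethanol), 11.79 (FA) and 11.78 (no addition) at day 7, and 10.21 (ethanol and FA), 10.31 (ethanol), 10.02 (FA) and 10.25 (no addition) at day 21.

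**Figure D1:**
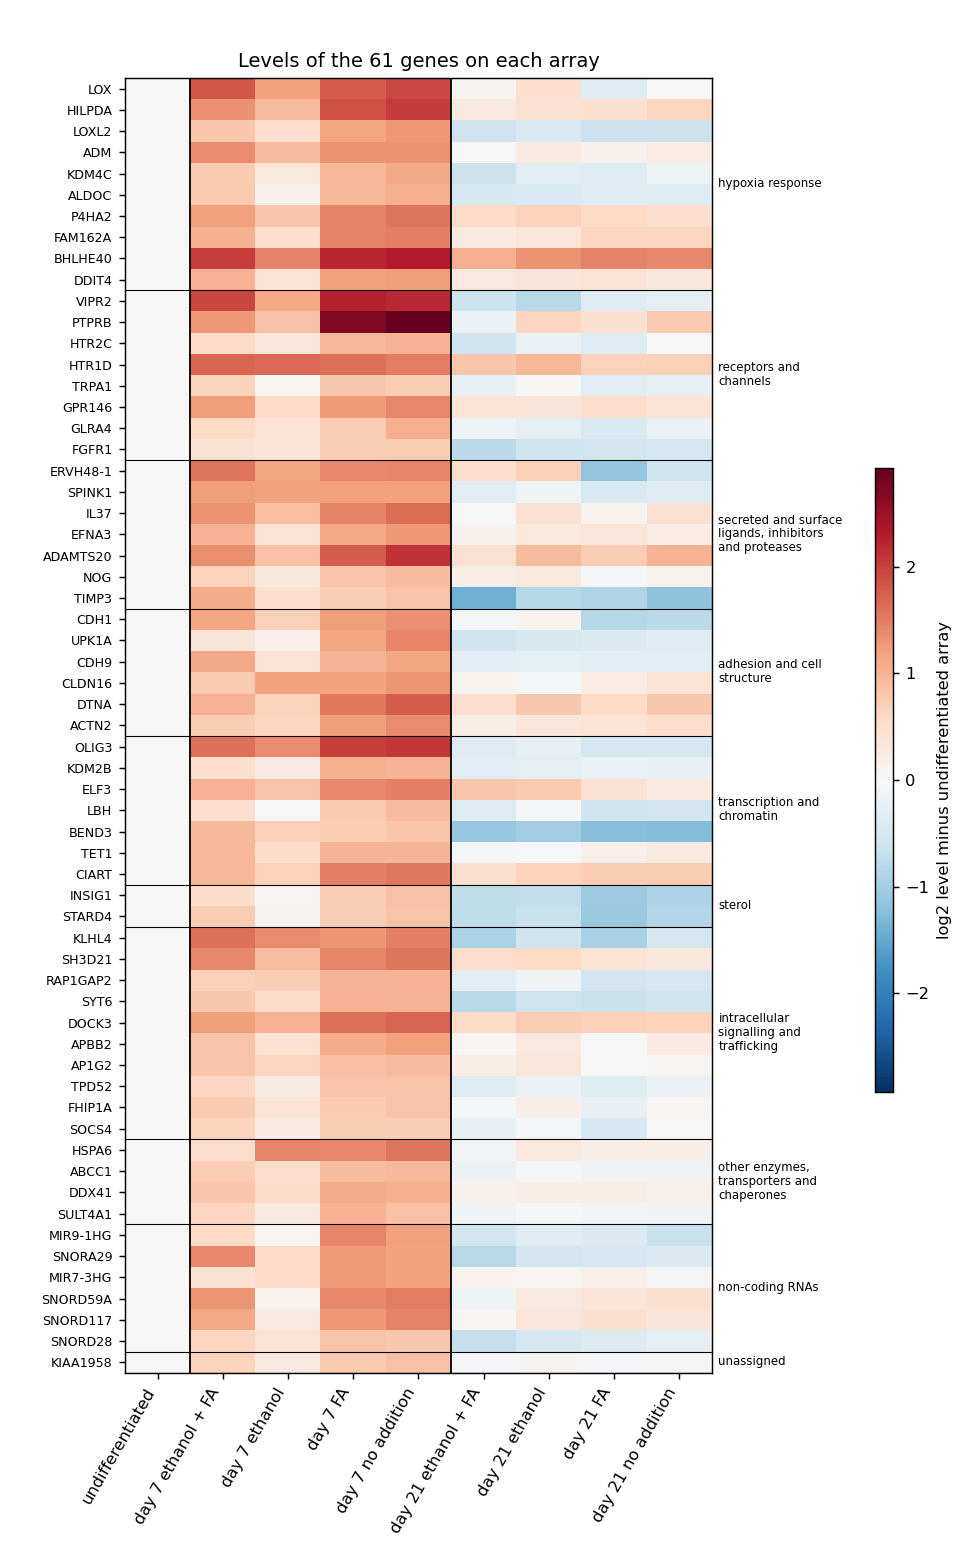
Level of each of the 61 genes on each of the 9 arrays, as log2 level minus that of the undifferentiated array (colour), with genes grouped by role. The day 7 columns without ethanol are high by the choice of genes, the ethanol-only column of day 7 is paler than its neighbours in most rows, and the day 21 columns lie near or below 0 for most genes.

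The 4 arrays with ethanol took no part in the choice, and most of the genes were highest at day 7 there too. Both ethanol arrays of day 7 exceeded both ethanol arrays of day 21 in 55 of the 61 genes, against 30.9% of all genes. They exceeded the undifferentiated array as well in 55 of the 61, against 13.6% of all genes, although only 6 of the 61 did so by the full 0.7 log2. Counts that include the undifferentiated array, here and in the next sentence, are a description, because the rule required that array to be low. Applied to the ethanol arrays, the rule would have found 15 genes in all (0.0814%), so that the 6 shared genes are 9.84% of the 61 and 40.0% of the 15. The filter on dim genes, read on these 4 arrays alone, left 12024 genes, 54 of the 61 among them. Tested with limma over these, 36 of the 54 genes fell between day 7 and day 21 within ethanol and 0 rose, at a Benjamini-Hochberg adjusted p below 0.05. Of all genes so tested 5.87% fell and 9.78% rose. The median difference was -0.77 log2 for the 54 genes and -0.01 for all, and 49 of the 54 had an unadjusted p below 0.05. With the filter read on all 9 arrays, the setting used for the adjusted p-values given for single genes below, 12254 genes were tested and 38 of the 59 genes of the set among them fell and 0 rose (5.8% and 9.65% of all genes tested). GLRA4 and MIR9-1HG among the 38, and MIR7-3HG, NOG and SNORD59A among those that did not pass, entered that test only through the day 7 arrays without ethanol, on which the choice had required high levels. CDH9 and TRPA1 were too dim to be tested under either filter. Leaving out the ethanol-only array of day 7 leaves 3 arrays, too few to test with FA as a term. Without that array and the FA term, day 7 rests on 1 array, and the median difference over the 59 genes was -0.87 log2. On all 4 arrays without the FA term it was -0.75. In that 4-array fit 36 of the 59 genes passed, all lower, beside 2422 of all 12254 genes in either direction.

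**Figure D2:**
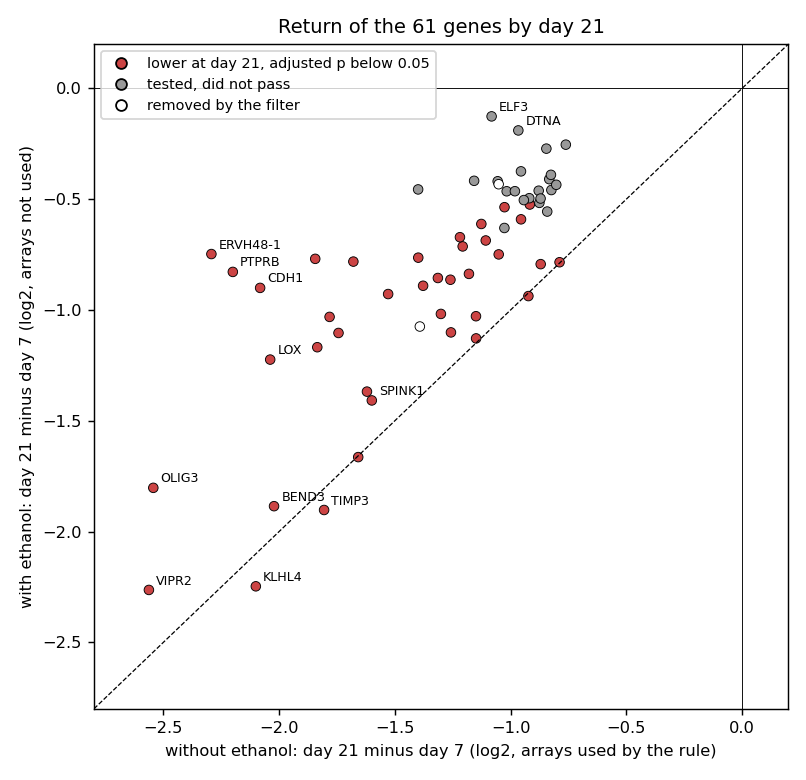
Day 21 minus day 7 for each of the 61 genes (points), as the mean over arrays without ethanol on the horizontal axis and with ethanol on the vertical axis, both in log2. All 61 points lie below 0 on both axes, most of them above the diagonal, and red points are the 38 genes that passed the limma test.

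Genes of the hypoxia response made up 10 of the 61, out of 55 measured on that list, and 6 of the 10 fell between day 7 and day 21 within ethanol. Beside this count and those of the other roles below stand 38 of the 59 tested genes of the set and 5.8% of all genes tested. Roles were given after the genes were seen, so these counts are a description and set no role apart. Their day 7 level was lower with ethanol in 8 of the 10 in the pair with FA and in 10 of the 10 in the pair without, close to the shares of all 61 genes given below. LOX codes for lysyl oxidase, which crosslinks collagen and elastin. Its level was 9.23 in undifferentiated cells, 11.04 (ethanol and FA), 10.43 (ethanol), 11.00 (FA) and 11.17 (no addition) at day 7, and 9.32 (ethanol and FA), 9.71 (ethanol), 8.86 (FA) and 9.23 (no addition) at day 21. At day 7 the ethanol-only array was thus the lowest of 4 and the other 3 lay close together. LOX fell by 1.22 ± 0.21 log2 between day 7 and day 21 within ethanol (SE of the limma fit, adjusted p = 0.0044). LOXL2, a lysyl oxidase relative, had 9.19 in undifferentiated cells, 9.99 (ethanol and FA), 9.67 (ethanol), 10.34 (FA) and 10.44 (no addition) at day 7, and 8.57 (ethanol and FA), 8.75 (ethanol), 8.55 (FA) and 8.56 (no addition) at day 21. Both day 7 ethanol arrays lay below both without, and within ethanol LOXL2 fell by 1.17 ± 0.15 (limma adjusted p = 0.000853). P4HA2, a subunit of the enzyme that hydroxylates collagen prolines, had 9.08 in undifferentiated cells, 10.27 (ethanol and FA), 9.88 (ethanol), 10.52 (FA) and 10.63 (no addition) at day 7, and 9.64 (ethanol and FA), 9.76 (ethanol), 9.67 (FA) and 9.58 (no addition) at day 21. Its day 21 levels stayed above the undifferentiated one, and its difference within ethanol was -0.37 ± 0.15 (limma adjusted p = 0.147), which did not pass.

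HILPDA codes for a lipid droplet protein that slows fat breakdown when oxygen is low. HILPDA levels were 9.32 in undifferentiated cells, 10.66 (ethanol and FA), 10.26 (ethanol), 11.19 (FA) and 11.36 (no addition) at day 7, and 9.62 (ethanol and FA), 9.78 (ethanol), 9.80 (FA) and 9.95 (no addition) at day 21. Its ethanol arrays were below both arrays without ethanol at day 7 and, by a smaller gap, at day 21, and within ethanol it fell by 0.76 ± 0.16 (limma adjusted p = 0.0116). ADM, the gene of the vasodilator peptide adrenomedullin, had 10.26 in undifferentiated cells, 11.64 (ethanol and FA), 11.19 (ethanol), 11.57 (FA) and 11.58 (no addition) at day 7, and 10.27 (ethanol and FA), 10.51 (ethanol), 10.38 (FA) and 10.47 (no addition) at day 21. All day 21 arrays were back close to the undifferentiated level. ADM fell by 1.03 ± 0.17 within ethanol (limma adjusted p = 0.00376). ALDOC, a glycolytic aldolase expressed in brain, had 10.58 in undifferentiated cells, 11.34 (ethanol and FA), 10.70 (ethanol), 11.55 (FA) and 11.63 (no addition) at day 7, and 10.12 (ethanol and FA), 10.13 (ethanol), 10.21 (FA) and 10.21 (no addition) at day 21. With ethanol alone at day 7 ALDOC was close to its undifferentiated level, 0.93 log2 below the array with no addition.

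The histone demethylase gene KDM4C had 9.93 in undifferentiated cells, 10.23 to 11.04 at day 7 and 9.31 to 9.77 at day 21, and fell by 1.02 ± 0.18 within ethanol (limma adjusted p = 0.00488). BHLHE40, a transcriptional repressor that also feeds into the circadian clock, had 9.21 in undifferentiated cells, 11.24 (ethanol and FA), 10.65 (ethanol), 11.43 (FA) and 11.51 (no addition) at day 7, and 10.25 (ethanol and FA), 10.52 (ethanol), 10.65 (FA) and 10.61 (no addition) at day 21. It kept most of its gain at day 21, and its difference within ethanol of -0.56 ± 0.19 did not pass (limma adjusted p = 0.0927). DDIT4, an inhibitor of the growth kinase mTORC1, had 10.03 in undifferentiated cells, 10.46 to 11.25 at day 7 and 10.32 to 10.46 at day 21. The mitochondrial protein gene FAM162A had 9.49 in undifferentiated cells, 9.99 to 10.95 at day 7 and 9.76 to 10.13 at day 21. Neither passed within ethanol, at -0.39 ± 0.17 and -0.46 ± 0.16. Over the 10 genes the median ethanol difference at day 7 was -0.21 log2 with FA and -0.80 without FA.

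Of the hypoxia genes outside the set, the 10 that the rule names stood a median of 1.81 log2 above the undifferentiated level at day 7 without ethanol and were still 1.49 above it at day 21, and 4 of them (PPFIA4, NDRG1, ANKRD37 and PFKFB4) met the margin. Of these 10, 0 fell in limma between day 7 and day 21 within ethanol, while at an unadjusted p below 0.05 PPFIA4 was lower and KDM3A and P4HA1 were higher at day 21. Their median ethanol difference at day 7 was -0.36 with FA and -1.22 without FA. Of the 54 hypoxia-response genes tested, 8 fell and 2 rose within ethanol between the days (median -0.12), and 6 of the 8 were genes of the set. RORA, a nuclear receptor gene of the list, had 7.95 in undifferentiated cells, 10.02 (ethanol and FA), 9.42 (ethanol), 10.12 (FA) and 10.28 (no addition) at day 7, and 9.72 (ethanol and FA), 9.94 (ethanol), 9.92 (FA) and 10.00 (no addition) at day 21. The list of 22 glycolysis genes held 1 member of the set, ALDOC, and 2 of its genes fell and 0 rose within ethanol.

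Among 8 receptor and channel genes, 6 of the 7 tested fell within ethanol. GLRA4, among the 6, entered the test only through the day 7 arrays without ethanol. VIPR2 codes for a receptor of the neuropeptides VIP and PACAP. Its levels were 7.50 in undifferentiated cells, 9.45 (ethanol and FA), 8.63 (ethanol), 9.76 (FA) and 9.70 (no addition) at day 7, and 6.87 (ethanol and FA), 6.69 (ethanol), 7.12 (FA) and 7.22 (no addition) at day 21. Every day 21 array lay below the undifferentiated level, and at both days the ethanol arrays lay below those without. Within ethanol VIPR2 fell by 2.26 ± 0.17 log2, the largest decrease of the 59 tested genes (limma adjusted p = 2.66e-05). PTPRB, a receptor tyrosine phosphatase known from vessel lining cells, had 7.44 in undifferentiated cells, 8.70 (ethanol and FA), 8.30 (ethanol), 10.14 (FA) and 10.36 (no addition) at day 7, and 7.27 (ethanol and FA), 8.06 (ethanol), 7.90 (FA) and 8.21 (no addition) at day 21. Here the ethanol arrays of day 7 differed from those without by -1.44 log2 in the pair with FA and -2.07 in the pair without, and within ethanol PTPRB fell by 0.83 ± 0.24 (limma adjusted p = 0.0469). Only 6 of 16 endothelial markers passed the filter on dim genes, PTPRB included, and the median of the 16 stayed between 6.99 and 7.38 on all 9 arrays. KDR, PECAM1, CDH5, TEK and TIE1 had no value above 7.39 on any array, against a filter at 7.71. FLT1, a VEGF receptor gene of the same list, had 8.46 (ethanol and FA) and 8.24 (ethanol), against 7.55 (FA) and 7.60 (no addition), at day 7, opposite to PTPRB. In bulk RNA, fewer cells of a type and less RNA per cell cannot be told apart.

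The serotonin receptor genes differed from each other. HTR1D had 9.55 in undifferentiated cells, 11.25 (ethanol and FA), 11.20 (ethanol), 11.16 (FA) and 11.04 (no addition) at day 7, and 10.35 (ethanol and FA), 10.51 (ethanol), 10.23 (FA) and 10.23 (no addition) at day 21, and its day 7 levels were slightly higher in both ethanol arrays than in both without. HTR2C had 7.90 in undifferentiated cells, 8.45 (ethanol and FA), 8.26 (ethanol), 8.86 (FA) and 8.91 (no addition) at day 7, and 7.32 (ethanol and FA), 7.71 (ethanol), 7.53 (FA) and 7.88 (no addition) at day 21, lower with ethanol at day 7. Both fell between the days within ethanol, HTR1D by 0.79 ± 0.13 and HTR2C by 0.84 ± 0.16 (limma adjusted p = 0.00355 and 0.00752). FGFR1, a fibroblast growth factor receptor, had 11.25 in undifferentiated cells, 11.63 to 12.00 at day 7 and 10.45 to 10.72 at day 21 and fell by 1.10 ± 0.14 (limma adjusted p = 0.000608). The glycine receptor pseudogene GLRA4 had 7.11 in undifferentiated cells, 7.54 to 8.17 at day 7 and 6.67 to 6.96 at day 21 and fell by 0.71 ± 0.13. GPR146, a G protein-coupled receptor gene, had 7.42 in undifferentiated cells, 7.97 to 8.82 at day 7 and 7.79 to 7.93 at day 21 and did not pass (-0.50 ± 0.17). TRPA1, an irritant-sensing cation channel gene too dim for the test, had 5.73 in undifferentiated cells, 5.80 to 6.52 at day 7 and 5.41 to 5.80 at day 21.

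**Figure D3:**
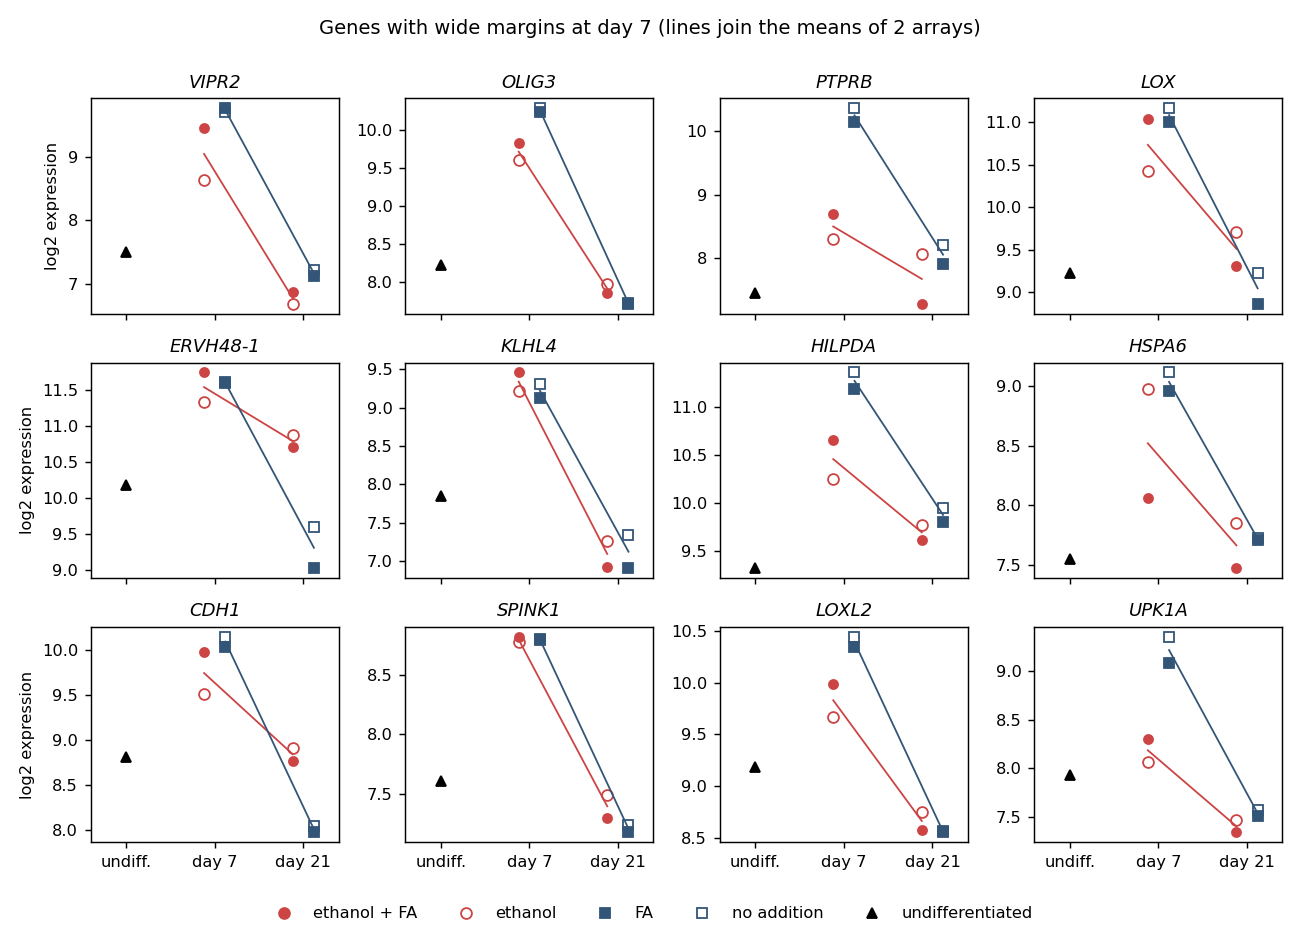
Log2 level on all 9 arrays of the 12 genes with the widest margin once small RNAs, microRNA hosts and provisional names are passed over, by stage, with lines through the means of the arrays with ethanol (red) and without (blue) and a separate vertical scale for each gene. In PTPRB and UPK1A the red day 7 points lie far below the blue ones, in SPINK1 and KLHL4 they overlap, and in ERVH48-1 and CDH1 the red day 21 points lie above the blue ones.

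Among secreted and surface ligands, inhibitors and proteases, 4 of 7 genes fell within ethanol. ERVH48-1 codes for suppressyn, a protein of retroviral origin known in placenta for restraining cell fusion. Its levels were 10.19 in undifferentiated cells, 11.75 (ethanol and FA), 11.34 (ethanol), 11.60 (FA) and 11.61 (no addition) at day 7, and 10.71 (ethanol and FA), 10.88 (ethanol), 9.03 (FA) and 9.60 (no addition) at day 21. At day 7 the arrays with and without ethanol overlapped, while at day 21 both ethanol arrays were above both without, by 1.68 in the pair with FA and 1.29 in the pair without. Within ethanol ERVH48-1 fell by 0.75 ± 0.16 (limma adjusted p = 0.0132). SPINK1, a trypsin inhibitor gene, had 7.61 in undifferentiated cells, 8.83 (ethanol and FA), 8.78 (ethanol), 8.81 (FA) and 8.80 (no addition) at day 7, and 7.30 (ethanol and FA), 7.49 (ethanol), 7.17 (FA) and 7.23 (no addition) at day 21. Its 4 day 7 arrays were nearly equal, and it fell by 1.41 ± 0.13 within ethanol (limma adjusted p = 0.000127). TIMP3, an inhibitor of matrix metalloproteinases, had 7.43 in undifferentiated cells, 8.50 (ethanol and FA), 7.92 (ethanol), 8.15 (FA) and 8.26 (no addition) at day 7, and 6.03 (ethanol and FA), 6.59 (ethanol), 6.54 (FA) and 6.25 (no addition) at day 21. Its day 21 arrays were all below the undifferentiated level, and it fell by 1.90 ± 0.23 (limma adjusted p = 0.000558), or by 1.03 with its 2 transcript clusters averaged. Its dimmer cluster thus fell much less than the one read here, and with clusters averaged TIMP3 no longer met the margin. Without the ethanol-only array of day 7 and the FA term the TIMP3 difference was -2.19 and did not pass (limma adjusted p = 0.0724).

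The anti-inflammatory cytokine gene IL37 had 7.76 in undifferentiated cells, 8.65 to 9.40 at day 7 and 7.77 to 8.21 at day 21 and fell by 0.86 ± 0.19 within ethanol (limma adjusted p = 0.0153). EFNA3, a membrane ligand of Eph receptors, had 9.04 in undifferentiated cells, 9.47 to 10.32 at day 7 and 9.18 to 9.39 at day 21, and ADAMTS20, a secreted metalloproteinase gene, had 7.30 in undifferentiated cells, 8.15 to 9.40 at day 7 and 7.75 to 8.31 at day 21. NOG codes for noggin, an antagonist of bone morphogenetic proteins, and had 6.84 in undifferentiated cells, 7.18 to 7.76 at day 7 and 6.81 to 7.15 at day 21. None of these 3 passed within ethanol, with differences of -0.50 ± 0.18, -0.42 ± 0.21 and -0.27 ± 0.15. Of the 15 tested genes of BMP signalling, NOG included, 6 rose and 0 fell within ethanol. Of the 20 tested genes of FGF and ERK feedback 1 rose and 12 fell, with FGFR1 among those that fell.

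Of 5 tested genes of adhesion and cell structure, 3 fell within ethanol. CDH1 codes for E-cadherin, which joins epithelial and pluripotent cells. Its levels were 8.81 in undifferentiated cells, 9.97 (ethanol and FA), 9.52 (ethanol), 10.04 (FA) and 10.15 (no addition) at day 7, and 8.77 (ethanol and FA), 8.92 (ethanol), 7.98 (FA) and 8.05 (no addition) at day 21. Both day 21 ethanol arrays were above both without, by 0.79 with FA and 0.87 without FA. CDH1 fell by 0.90 ± 0.16 within ethanol (limma adjusted p = 0.00562). CDH1 was the only member of the set among 14 measured epithelial genes, of which 10 were tested and 2 fell and 0 rose within ethanol. UPK1A, a tetraspanin of the bladder lining, had 7.93 in undifferentiated cells, 8.30 (ethanol and FA), 8.07 (ethanol), 9.08 (FA) and 9.35 (no addition) at day 7, and 7.34 (ethanol and FA), 7.46 (ethanol), 7.51 (FA) and 7.57 (no addition) at day 21. The ethanol levels of UPK1A at day 7 stayed closer to the undifferentiated level than to those without ethanol, and within ethanol it fell by 0.78 ± 0.14 (limma adjusted p = 0.00552).

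ACTN2, an alpha-actinin of the muscle Z-disc, had 7.15 in undifferentiated cells, 7.88 (ethanol and FA), 7.76 (ethanol), 8.38 (FA) and 8.52 (no addition) at day 7, and 7.32 (ethanol and FA), 7.50 (ethanol), 7.56 (FA) and 7.67 (no addition) at day 21. DTNA codes for alpha-dystrobrevin, which links the dystrophin complex to signalling proteins, and had 8.02 in undifferentiated cells, 9.03 (ethanol and FA), 8.67 (ethanol), 9.56 (FA) and 9.79 (no addition) at day 7, and 8.52 (ethanol and FA), 8.80 (ethanol), 8.61 (FA) and 8.81 (no addition) at day 21. For both genes the ethanol arrays of day 7 lay below both without, and neither passed between the days within ethanol (-0.41 ± 0.14 and -0.19 ± 0.17). CLDN16, a tight junction claudin of the kidney, had 6.83 in undifferentiated cells, 7.60 to 8.12 at day 7 and 6.80 to 7.23 at day 21 and fell by 0.94 ± 0.16 (limma adjusted p = 0.00373). CDH9, a classical cadherin gene too dim for the test, had 6.08 in undifferentiated cells, 6.52 to 7.25 at day 7 and 5.75 to 5.81 at day 21.

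Of 7 transcription and chromatin genes, 4 fell within ethanol. OLIG3 codes for a transcription factor of dorsal neural tube progenitors. Its levels were 8.22 in undifferentiated cells, 9.83 (ethanol and FA), 9.61 (ethanol), 10.24 (FA) and 10.29 (no addition) at day 7, and 7.86 (ethanol and FA), 7.97 (ethanol), 7.71 (FA) and 7.72 (no addition) at day 21. The 4 day 7 arrays stood well above all others, with the ethanol arrays the lower of the 4, and OLIG3 fell by 1.80 ± 0.14 within ethanol (limma adjusted p = 3.58e-05). Of the 20 neural progenitor genes measured on a separate list, 0 were in the set. BEND3, a chromatin-bound repressor gene, had 9.97 in undifferentiated cells, 10.91 (ethanol and FA), 10.66 (ethanol), 10.70 (FA) and 10.78 (no addition) at day 7, and 8.86 (ethanol and FA), 8.94 (ethanol), 8.73 (FA) and 8.71 (no addition) at day 21. With and without ethanol its day 7 levels overlapped, and it fell by 1.89 ± 0.14 (limma adjusted p = 2.61e-05).

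KDM2B codes for a demethylase that brings a Polycomb complex to unmethylated CpG islands. KDM2B had 9.03 in undifferentiated cells, 9.53 (ethanol and FA), 9.28 (ethanol), 10.07 (FA) and 10.04 (no addition) at day 7, and 8.72 (ethanol and FA), 8.75 (ethanol), 8.85 (FA) and 8.82 (no addition) at day 21. Its ethanol arrays lay below those without at day 7 and, narrowly, at day 21, and it fell by 0.67 ± 0.14 within ethanol (limma adjusted p = 0.00992). TET1, which oxidises methylated cytosine, had 10.41 in undifferentiated cells, 10.95 to 11.41 at day 7 and 10.36 to 10.67 at day 21 and fell by 0.78 ± 0.15 (limma adjusted p = 0.00784). ELF3, an epithelial ETS factor gene, had 7.32 in undifferentiated cells, 8.33 (ethanol and FA), 8.15 (ethanol), 8.71 (FA) and 8.79 (no addition) at day 7, and 8.14 (ethanol and FA), 8.09 (ethanol), 7.75 (FA) and 7.59 (no addition) at day 21. ELF3 showed the smallest day difference of the 59 genes within ethanol, -0.13 ± 0.13, and its ethanol arrays were lower at day 7 and higher at day 21 than those without. The circadian repressor gene CIART had 7.74 in undifferentiated cells, 8.41 to 9.28 at day 7 and 8.21 to 8.49 at day 21, and the transcriptional cofactor gene LBH had 9.17 in undifferentiated cells, 9.17 to 10.09 at day 7 and 8.59 to 9.10 at day 21. Neither passed within ethanol (-0.25 ± 0.15 and -0.46 ± 0.18).

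Both sterol genes of the set returned below the undifferentiated level. INSIG1 codes for an endoplasmic reticulum protein that holds back sterol-regulated transcription factors when sterols are plentiful. INSIG1 had 9.45 in undifferentiated cells, 10.00 (ethanol and FA), 9.52 (ethanol), 10.18 (FA) and 10.31 (no addition) at day 7, and 8.72 (ethanol and FA), 8.73 (ethanol), 8.38 (FA) and 8.55 (no addition) at day 21. STARD4, a carrier of cholesterol between membranes, had 9.12 in undifferentiated cells, 9.86 (ethanol and FA), 9.20 (ethanol), 9.83 (FA) and 9.96 (no addition) at day 7, and 8.37 (ethanol and FA), 8.48 (ethanol), 8.04 (FA) and 8.27 (no addition) at day 21. In both genes the ethanol-only array of day 7 was near the undifferentiated level and the day 21 ethanol arrays were above those without. INSIG1 fell by 1.03 ± 0.15 and STARD4 by 1.10 ± 0.18 within ethanol (limma adjusted p = 0.00171 and 0.00334). Of the 18 cholesterol synthesis genes tested, 12 fell and 0 rose within ethanol between the days (median -0.62), and INSIG1 and STARD4 were the 2 that met the margin at day 7. SREBF2, the main regulator of that pathway, had 9.99 in undifferentiated cells, 10.31 (ethanol and FA), 10.04 (ethanol), 10.45 (FA) and 10.51 (no addition) at day 7, and 9.50 (ethanol and FA), 9.45 (ethanol), 9.45 (FA) and 9.39 (no addition) at day 21.

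Of the 10 genes of intracellular signalling and trafficking, 6 fell within ethanol. KLHL4, a kelch-repeat protein gene, had 7.84 in undifferentiated cells, 9.46 (ethanol and FA), 9.22 (ethanol), 9.13 (FA) and 9.32 (no addition) at day 7, and 6.93 (ethanol and FA), 7.26 (ethanol), 6.91 (FA) and 7.34 (no addition) at day 21. Its day 7 levels with and without ethanol overlapped, and it fell by 2.25 ± 0.16 (limma adjusted p = 2.09e-05). SYT6, a synaptotagmin gene, had 9.91 in undifferentiated cells, 10.45 to 10.93 at day 7 and 9.11 to 9.31 at day 21 and fell by 1.37 ± 0.15. RAP1GAP2, which switches off the small GTPase RAP1, had 8.33 in undifferentiated cells, 9.04 to 9.35 at day 7 and 7.77 to 8.24 at day 21 and fell by 0.93 ± 0.13. SH3D21 had 8.97 in undifferentiated cells, 10.37 (ethanol and FA), 9.87 (ethanol), 10.39 (FA) and 10.54 (no addition) at day 7, and 9.48 (ethanol and FA), 9.54 (ethanol), 9.37 (FA) and 9.31 (no addition) at day 21 and fell by 0.61 ± 0.16. TPD52 had 8.99 in undifferentiated cells, 9.23 to 9.82 at day 7 and 8.63 to 8.81 at day 21 and fell by 0.69 ± 0.16. SOCS4, of the family that dampens cytokine signalling, had 9.65 in undifferentiated cells, 9.90 to 10.38 at day 7 and 9.18 to 9.67 at day 21 and fell by 0.59 ± 0.16. Limma adjusted p for these 5 lay between 0.000273 and 0.0387. The 4 that did not pass were DOCK3, an activator of the GTPase RAC, with 8.37 in undifferentiated cells, 9.38 to 10.06 at day 7 and 8.94 to 9.10 at day 21, APBB2, an adaptor of the amyloid precursor protein, with 10.17 in undifferentiated cells, 10.62 to 11.37 at day 7 and 10.19 to 10.46 at day 21, AP1G2, a clathrin adaptor subunit, with 8.61 in undifferentiated cells, 9.25 to 9.53 at day 7 and 8.62 to 8.96 at day 21, and FHIP1A with 8.82 in undifferentiated cells, 9.21 to 9.65 at day 7 and 8.60 to 9.01 at day 21.

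All 4 of the other enzymes, transporters and chaperones fell within ethanol. HSPA6 codes for a strictly stress-induced HSP70 chaperone and has a near-identical neighbour, so its signal may be shared. HSPA6 had 7.55 in undifferentiated cells, 8.06 (ethanol and FA), 8.97 (ethanol), 8.95 (FA) and 9.11 (no addition) at day 7, and 7.47 (ethanol and FA), 7.85 (ethanol), 7.71 (FA) and 7.73 (no addition) at day 21. The array with ethanol and FA was the low one at day 7, unlike in most of the 61 genes, and HSPA6 fell by 0.86 ± 0.16 (limma adjusted p = 0.00575). ABCC1, a drug and glutathione conjugate exporter, had 10.02 in undifferentiated cells, 10.54 to 10.97 at day 7 and 9.84 to 9.96 at day 21 and fell by 0.75 ± 0.14. DDX41, an RNA helicase gene, had 10.92 in undifferentiated cells, 11.47 to 12.01 at day 7 and 11.05 to 11.09 at day 21 and fell by 0.52 ± 0.14. SULT4A1, a sulfotransferase family gene of the brain, had 7.94 in undifferentiated cells, 8.21 to 8.96 at day 7 and 7.84 to 7.87 at day 21 and fell by 0.54 ± 0.14 (limma adjusted p = 0.00651, 0.0323 and 0.0365 in that order).

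Non-coding RNAs made up 6 of the 61 genes. MIR9-1HG, the host transcript of a neural microRNA, had 6.56 in undifferentiated cells, 7.15 (ethanol and FA), 6.63 (ethanol), 7.98 (FA) and 7.75 (no addition) at day 7, and 6.02 (ethanol and FA), 6.21 (ethanol), 6.14 (FA) and 5.91 (no addition) at day 21. With ethanol alone at day 7 it was near its undifferentiated level, and within ethanol it fell by 0.77 ± 0.18 (limma adjusted p = 0.0175). MIR9-1HG entered that test only through the day 7 arrays without ethanol, which the rule required to be high. MIR7-3HG, also a microRNA host, had 6.96 in undifferentiated cells, 7.39 (ethanol and FA), 7.52 (ethanol), 8.19 (FA) and 8.14 (no addition) at day 7, and 7.07 (ethanol and FA), 7.01 (ethanol), 7.11 (FA) and 6.91 (no addition) at day 21. Both ethanol arrays of day 7 were below both without, by 0.80 with FA and 0.62 without FA, and the day difference within ethanol of -0.42 ± 0.13 did not pass. The small nucleolar RNAs guide chemical modification of ribosomal or spliceosomal RNA. SNORA29 had 7.48 in undifferentiated cells, 8.88 (ethanol and FA), 8.04 (ethanol), 8.72 (FA) and 8.65 (no addition) at day 7, and 6.66 (ethanol and FA), 6.93 (ethanol), 6.99 (FA) and 7.06 (no addition) at day 21 and fell by 1.66 ± 0.23 within ethanol. SNORD28 had 11.19 in undifferentiated cells, 11.62 to 12.02 at day 7 and 10.52 to 10.91 at day 21 and fell by 1.13 ± 0.14 (limma adjusted p = 0.00109 and 0.000675 in that order). SNORD59A had 7.49 (ethanol and FA) and 6.32 (ethanol), against 7.61 (FA) and 7.72 (no addition), at day 7, the widest gap of the 61 genes after PTPRB in the pair without FA. SNORD117 had 8.73 (ethanol and FA) and 7.87 (ethanol), against 8.87 (FA) and 9.07 (no addition), at day 7. Neither passed within ethanol (-0.63 ± 0.30 and -0.50 ± 0.24). KIAA1958, given no role here, had 9.23 in undifferentiated cells, 9.51 to 10.09 at day 7 and 9.21 to 9.32 at day 21 and a difference of -0.44 ± 0.15, which did not pass.

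Most of the 61 genes had lower day 7 levels with ethanol than without. In the pair with FA the ethanol array was lower in 49 of the 61 genes (47.9% of all genes), with a median of -0.20 log2 against 0.00 for all genes. In the pair without FA it was lower in 60 (38.3% of all), with a median of -0.68 against 0.05, and in 9 genes at least 2-fold lower (0.223% of all genes). HTR1D was the exception in that pair. Both ethanol arrays lay below both arrays without ethanol in 47 genes (15.8% of all), and the ethanol-only array was the lowest of the day 7 arrays in 55 (27.2% of all). Because the arrays without ethanol chose the genes for high day 7 levels, differences from those arrays lean below 0 by that choice. Choosing genes on the arrays of the other FA level keeps the arrays of each pair out of the choice. A deviation shared by both day 7 arrays without ethanol would remain. This choice gave a median of -0.65 without FA (82 of 85 genes lower) and -0.17 with FA (83 of 105 genes lower).

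**Figure D4:**
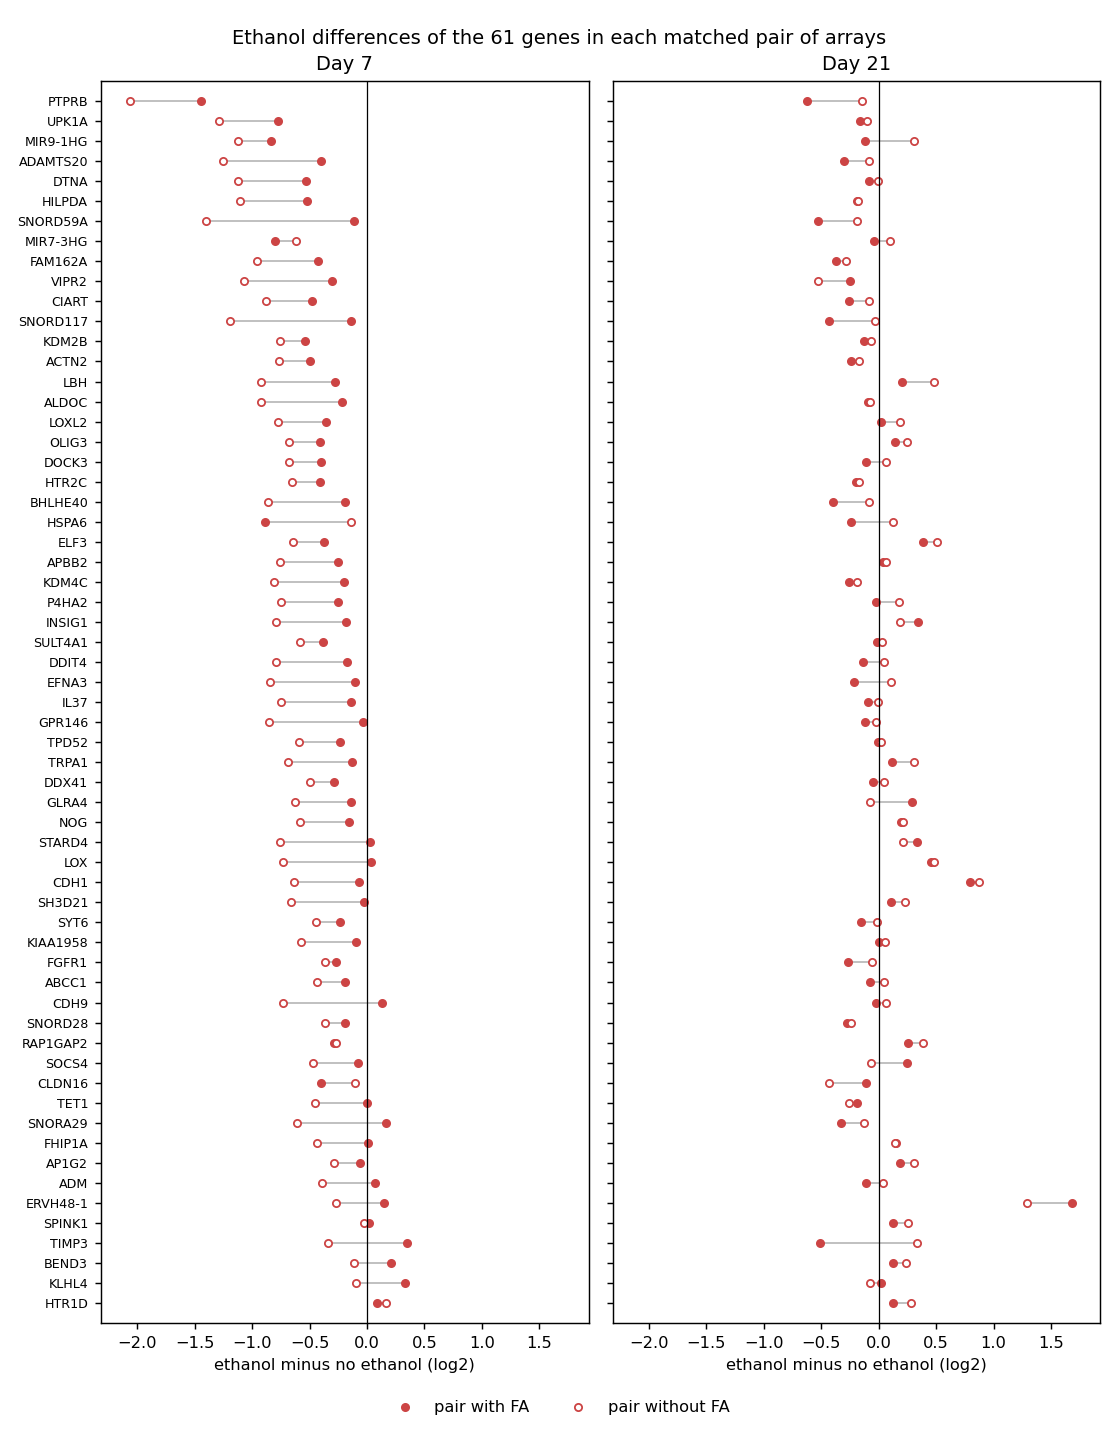
Ethanol minus no ethanol (log2) for each of the 61 genes in the pair of arrays with FA (filled) and without FA (open), at day 7 (left) and day 21 (right). At day 7 the open points lie below 0 for 60 genes, and at day 21 ERVH48-1 and CDH1 stand to the right of all other genes.

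Averaged over both day 7 pairs, the ethanol difference had a median of -0.48 log2 over the 59 tested genes, against 0.02 over all genes tested. The fit set these arrays against the day 7 arrays without ethanol that the rule required to be high, so its values for the 61 genes are a description. It placed 5 of the 59 below an adjusted p of 0.05 (0.171% of all genes tested were lower), and nothing is read from that count. They were PTPRB at -1.75 ± 0.24 log2, UPK1A at -1.03 ± 0.12, MIR7-3HG at -0.71 ± 0.09, KDM2B at -0.65 ± 0.09 and ACTN2 at -0.63 ± 0.09. MIR7-3HG passed the filter on dim genes only through the arrays without ethanol. The count of 5 became 0 with no filter on dim genes, where 5 of all 18417 genes passed in either direction. It became 1 with each array centred on its median, where 23 of all 12254 passed. Without the ethanol-only array, day 7 holds 1 ethanol array, and the median over the 59 genes was -0.18 log2. Across the 61 genes the ethanol differences of the pairs with and without FA correlated at r = 0.55, and at 0.23 across all genes. The pairs share no array, but both subtract a day 7 array that the rule required to be high, so r is a description. Genes on an array are not independent. PTPRB had the lowest value in both pairs (-1.44 with FA and -2.07 without FA), and r without it was not computed.

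At day 21 the ethanol differences were small and of both signs. In the pair with FA 38 of the 61 genes were lower with ethanol (43.1% of all genes; median -0.09), and in the pair without FA 27 were (40.5% of all; median 0.05). Both ethanol arrays lay above both without in 17 genes (22.9% of all) and below both in 17 (12.8% of all). ERVH48-1 and CDH1, described above, had the largest increases, with means of 1.48 and 0.83. LOX had 9.32 (ethanol and FA) and 9.71 (ethanol), against 8.86 (FA) and 9.23 (no addition), at day 21. The rule used the arrays without ethanol of both days, which also bears on the tests that follow. The test of the ethanol difference at day 21 against that at day 7 passed none of the 59 genes in limma (0.00816% of all genes; lowest adjusted p 0.155, ELF3), with 27 at an unadjusted p below 0.05. Its median over the 59 genes was 0.44 log2, and 0.20 without the ethanol-only array of day 7, which leaves 1 ethanol array at that day. Averaged over all 4 pairs, ethanol passed 0 of the 59 genes in limma (0.685% of all genes). In the same fit 25 of the 59 had an unadjusted p below 0.05. Without that array the averaged fit passed 2 (FAM162A and VIPR2, both at -0.36), beside 212 of all 12254 genes tested.

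**Figure D5:**
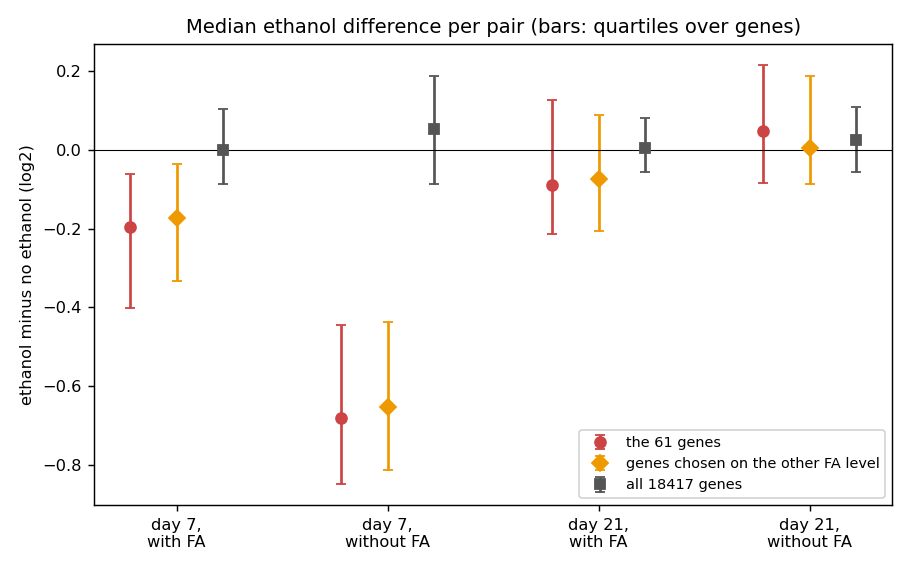
Median ethanol difference (log2, bars are quartiles over genes, not errors) in each matched pair of arrays for the 61 genes (red), for genes chosen on the arrays of the other FA level (orange) and for all 18417 genes (grey). At day 7 without FA the red and orange medians are -0.68 and -0.65, and at day 21 all medians lie within 0.09 of 0.

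Within ethanol at day 7, where the rule used neither array, the level was higher with FA than without FA in 57 of the 61 genes (43.7% of all genes), with a median of 0.38 log2. CLDN16, HSPA6, MIR7-3HG and RAP1GAP2 were the 4 exceptions. Without ethanol the same difference was above 0 in 13 genes (49.0% of all), with a median of -0.08. At day 21 the FA difference was below 0 in 55 genes within ethanol (54.1% of all; median -0.17) and in 42 without ethanol (46.4% of all; median -0.06). Neither the average FA difference nor the test of whether the ethanol difference depended on FA passed any of the 59 genes in limma (0.0% of all genes in each), with 1 and 0 genes at an unadjusted p below 0.05. Each of these pair differences rests on 1 array per condition.

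The ethanol-only array of day 7 stood a little apart from the others over all transcript clusters. Its mean correlation with the other day 7 arrays was 0.990, against 0.994 to 0.995 for the rest, and its values had an interquartile range of 2.78 log2, against 2.85 to 2.90. Leaving it out moved the median ethanol difference at day 7 over the 59 tested genes from -0.48 to -0.18 log2. The only ethanol array of day 7 then left is the one with FA. A deviation of the ethanol-only array therefore cannot be told apart from a difference between FA levels, and its part in the wider ethanol difference of the pair without FA was not tested. In the pair with FA, which does not contain it, the median difference was -0.20. That value is set against a day 7 array that the rule required to be high. Lists of other cell types held few genes of the set, with LOX among 19 mesenchyme and matrix genes, PTPRB among 16 endothelial genes and none among the blood, trophoblast, endoderm, early mesoderm, neural progenitor or neuron genes. Of 19 tested genes of collagen crosslinking and matrix enzymes, 4 were in the set (LOX, LOXL2, P4HA2 and TIMP3), and 2 rose and 4 fell within ethanol. Of 14 tested genes of lipid storage and transport, HILPDA was in the set, and 7 fell and 0 rose.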

How the data were processed

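Per the labels' protocols, RNA was isolated with Trizol and turned into biotinylated cDNA. The deposited values are log2 levels per transcript cluster that the authors made with RMA (background correction, quantile normalization and probe summary) using version 1.3.1 of Affymetrix Expression Console (source: the submitters' processing notes). The log base was inferred from the values, which ran from 2.49 to 14.3. A genome build was likewise not given in the sources used here. Quantile normalization hides a shift shared by most genes.

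Of 33297 clusters, 19460 had 1 gene symbol in the platform annotation, giving 18417 genes, each read from its brightest cluster. The genes, lists and roles described were chosen with earlier results of these data known, and the roles after the genes were seen. All 61 genes are named. Other genes named are those nearest the threshold, the rule's left-out genes and up to 3 per list with the largest day 7 difference from undifferentiated cells. The endothelial and embryonal carcinoma markers printed beside results were chosen after their values were seen.

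Genes whose highest value exceeded the median of all values (7.71) were tested, 12254 in all, including 59 of the 61. Without the day 7 arrays made without ethanol 54 would pass. Tests used limma 3.58.1 with statmod 1.5.0 in R 4.3.3 (lmFit and eBayes, with day, FA and ethanol as terms, and another for the undifferentiated array), adjusted by Benjamini-Hochberg with a threshold of 0.05. The day test used the 4 ethanol arrays with 1 residual degree of freedom, so the prior (7.80) carries most of the spread. The fits were tested on simulated data.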

Additional observations from a re-analysis of the deposited data

Results flagged for a closer look

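In 13 of the 61 genes the ethanol difference had 1 sign in both day 7 pairs and the opposite sign in both day 21 pairs, lower with ethanol at day 7 and higher at day 21. The choice of genes favours this pattern, since the arrays without ethanol were chosen to be high at day 7 and low at day 21. The share of all genes with this pattern was not counted, so nothing is read from the 13. The difference between the days (day 21 minus day 7, log2) was 1.18 ± 0.21 (SE of the limma fit) for CDH1, 0.96 ± 0.12 for ELF3, 0.94 ± 0.25 for LBH, 0.75 ± 0.22 for INSIG1 and 0.74 ± 0.13 for OLIG3. It was 0.67 ± 0.17 for LOXL2, 0.60 ± 0.11 for RAP1GAP2, 0.57 ± 0.18 for NOG, 0.55 ± 0.21 for APBB2 and 0.51 ± 0.21 for SH3D21. It was 0.42 ± 0.13 for AP1G2 and 0.37 ± 0.18 for KIAA1958. None of these 12 passed limma's test of the difference, where adjusted p ran from 0.155 (ELF3) to 0.775 (KIAA1958). TRPA1, too dim for the fit, differed by 0.62, and this was not tested.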

How the results depend on the processing

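The number of genes in the set was 61 at a margin of 0.7 log2, 162 at 0.5, 18 at 1.0, 61 with clusters averaged (60 shared) and 43 after centring every array on its median (43 shared). The day decrease within ethanol was called in 38 genes. Alternatives gave 32 to 49: no filter on dim genes, a stricter filter, centring, a variance trend, averaged clusters or no FA term. That range also covers the filter read on the ethanol arrays alone, which was added after seeing the data. With centring, the genes with the largest and the smallest decreases had the same SE (0.16). The count with centring thus rests on 1 shared spread and is not like the main fit. The ethanol difference at day 7 was called in 5 genes, in 0 with no filter, 1 with centring, 8 with the stricter filter, 8 with a variance trend, 5 with averaged clusters and 9 on the day 7 arrays alone. Leaving out the ethanol-only array of day 7, an alternative chosen after seeing the data for all fits but the average ethanol difference, gave 18 genes for the day decrease (a fit that also lost its FA term, for want of arrays), 19 for ethanol at day 7, 14 for ethanol by day, and 0 for FA and for ethanol by FA (a test added after seeing the data). The average ethanol difference was called in 0 to 2 genes when each embryoid body array was left out in turn, and the genes passing among all 12254 ran from 0 to 212, against 84 with all arrays. The counts that set ethanol against no ethanol rest on arrays that chose the genes. Without the ethanol-only array of day 7, the median ethanol difference over the 59 tested genes shrank. It went from -0.48 to -0.18 log2 at day 7 and from -0.23 to -0.09 averaged over the pairs. Over all genes, ethanol at day 7 passed 83, and 5 with no filter, 23 with centring, 221 with the stricter filter, 165 with a variance trend and 1150 without the ethanol-only array. The day test passed 1893, and 2757 with a variance trend and 2422 without the FA term and 623 without the FA term and that array. Ethanol by day passed 1, and 329 without that array. Median differences per pair kept their sign and moved by less than 0.05 log2 with centring, with the left-out genes counted in, or with genes chosen on the other FA level. No paired analysis was possible because each condition has 1 array.

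With 1 array per condition no difference between single arrays has a test, and signal in dim genes is compressed by RMA.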
